A study of Mus musculus and Heterocephalus glaber with 4 samples.

Results

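Mouse skin fibroblasts carrying SV40 large T antigen had 9150 autosomal sites that were called open where no open site was called in the control fibroblasts. They were chosen by the called peaks themselves: each is a peak of the large T ATAC-seq list on chromosomes 1 to 19 that no control peak overlapped by 1 bp or more. They made up 14.8% of the 61625 autosomal large T peaks, which is the share that the rule itself picks out, and the 4 lists of the series hold 302336 peaks in all. The other 52475 autosomal large T peaks overlapped at least 1 of 72924 autosomal control peaks and are called shared here. A further 191 large T peaks without a control counterpart lay on X and Y and were not counted as members.

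ATAC-seq uses a transposase that inserts sequencing adapters where DNA is accessible, so that a peak marks open chromatin such as a promoter, an enhancer or an insulator. Promoters of active genes are open in most cell types, whereas many distal enhancers open in only some cell types or states and tend to give weaker peaks. Large T antigen, a protein of the virus SV40, inactivates p53 and members of the retinoblastoma family. Loss of the latter frees E2F transcription factors, and cells that carry large T can escape the arrest that long culture can impose on mouse fibroblasts. The lists do not show whether either mouse group here was near such an arrest.

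The mouse large T group is adult skin fibroblasts at passage 16 into which large T antigen had been introduced, and the mouse control group is adult skin fibroblasts at passage 16 labelled as control. Both grew in EMEM with 15% serum at 37 °C, 3% oxygen and 5% CO2, and each reaction took 50000 cells. The study paired the same 2 kinds of library in naked mole rat, a long-lived rodent, whose cells also were at passage 16 and grew at 32 °C. Strain, sex, the way large T was introduced, and whether the cells were a clone or a mixed culture are not given in the sources used here. The deposited lists hold no gene names or reads, so the label of fibroblast was not checked against marker genes. Each group was 1 library. No value therefore has a replicate error, no difference between the libraries was tested, and every interval below is a 95% interval over peaks that covers counting error only and treats peaks as independent. Whether a site missing from the control list was closed in those cells or fell below the caller's threshold cannot be told apart, because read depth is unknown.

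In brief, the members were mostly weak and narrow peaks. At equal score they were slightly narrower than shared peaks, a direction that the rule itself can favour. More of them lay within 1 kb of a control peak, and more of them lay over 50 kb from any. For shared peaks the control peaks they overlapped were left out of this measure, which can add to the excess within 1 kb. The rule itself can favour the excess beyond 50 kb. About as many as among shared peaks of equal score flanked a shared large T peak. Chromosomes 3, 4 and 13 held more members, and chromosomes 1, 5, 7, 10 and 11 fewer, than the scores of their peaks would give.

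The 10 members of highest score show what the upper end of the group looked like. Positions are in mm9, the build named in the submitters' processing notes, and the score is the authors' own value per peak, used to rank peaks within the list. The highest lay on chromosome 9 at 3000001 to 3003249, with a score of 653 and rank 1327 among the autosomal large T peaks. Its nearest control peak was 10707 bp away. It sits at the first position used on that chromosome by either mouse list. Whether reads mapped reliably there could not be checked, because the lists hold no reads. A peak of 3024 bp on chromosome 18 at 61823693 to 61826716 came next, with a score of 635. Its nearest control peak lay 6660 bp away, and another member lay 2951 bp away. The third, on chromosome 18 at 21586931 to 21588440 with a score of 540, was 44960 bp from a control peak, and that control peak was itself found in the control list only.

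Next stood a chromosome 10 site, 127102284 to 127106172, with a score of 519, followed by a chromosome 19 site, 52627610 to 52629296, with 514. They differed in setting. The former was 3889 bp wide and 4985 bp from a control peak, and the latter was 1687 bp wide and 76724 bp from one. The remaining 5 had scores from 379 to 471 and lay on chromosome 8 at 16876704 to 16878084, chromosome 6 at 108607766 to 108613247, chromosome 2 at 117935181 to 117938265, chromosome 3 at 78702966 to 78704611 and chromosome 17 at 64896387 to 64897592. Of these 10 sites, the chromosome 6 site was the widest at 5482 bp and the closest to a control peak, at 3319 bp.

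Members crowded at the low end of the score scale. The deposited large T list starts at a score of 50. Member scores had a median of 70.3 (interval 69.7 to 71.0), and the 25th and 75th percentiles were 58.1 and 94.9. The median of shared large T peaks was 169. Of the 9150 members, 6522 (71.3%, 70.3 to 72.2) fell in the 3 lowest score deciles of the autosomal large T list, 728 (7.96%) in its 5 highest deciles and 87 (0.951%) in its 3 highest deciles. By decile, members were 44.0% of peaks in the lowest, 12.4% in decile 5, 3.23% in decile 7 and 0.13% in the highest, where 8 of 6162 peaks had no control counterpart. Shared peaks were therefore weighted to the members' score deciles in the comparisons that follow, so that peaks of like score are set against each other.

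**Figure D1:**
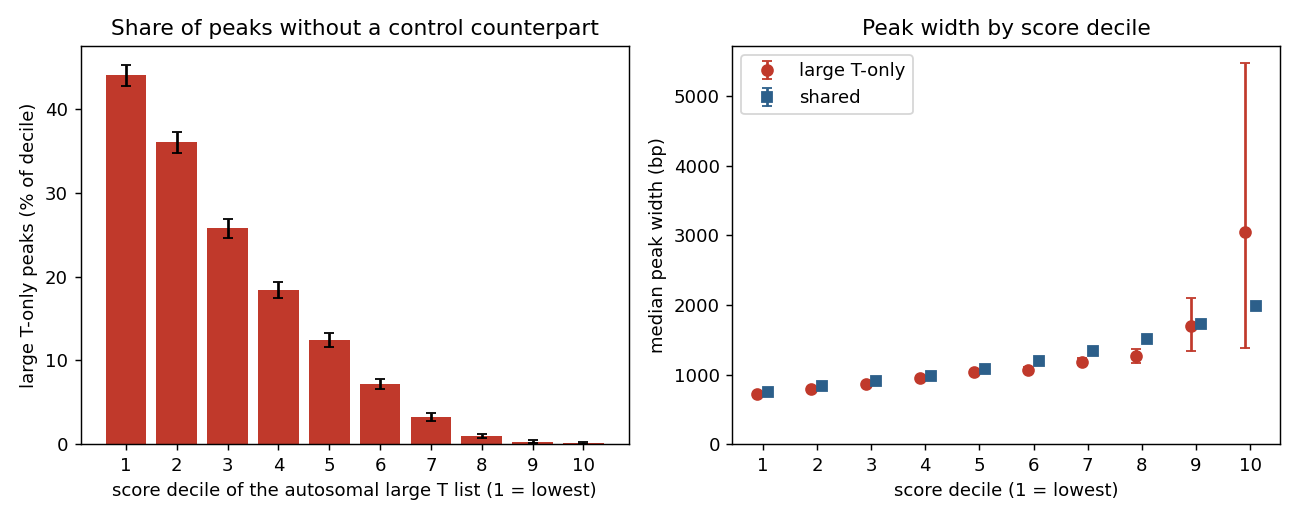
Left, the percentage of autosomal large T peaks without a control counterpart in each score decile, with exact 95% binomial intervals; the share runs from 44.0% in the lowest decile to 0.13% in the highest. Right, the median width in bp of large T-only (circles) and shared (squares) peaks per decile with 95% intervals of the median; members were narrower in deciles 1 to 9, and the interval of the 8 members in decile 10 spans 1381 to 5482 bp.

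Members were narrow, and most but not all of this went with their scores. Their median width was 847 bp (840 to 853), the 25th and 75th percentiles were 683 and 1046 bp, and the extremes were 261 and 7679 bp. Shared large T peaks had a median of 1242 bp, which came down to 886 bp (882 to 891) once they were weighted to the same score deciles. The remaining gap is 39 bp, and the 2 intervals do not overlap. A wider peak offers more length for a control peak to overlap, so the rule itself can favour narrow members. The part of this in the gap was not tested. Member medians were below shared medians in each of the 9 lower deciles, from 717 against 754 bp in the lowest to 1181 against 1334 bp in decile 7. Together the members covered 8.64 Mb, or 10.2% of the 84.3 Mb of the autosomal large T list.

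Within the 3 lowest deciles, peaks under 1000 bp had no control counterpart more often the narrower they were. The rule can work in this direction too, because a narrow peak is less easily overlapped. These width classes pool the 3 deciles and were not weighted by score. From decile 1 to decile 3 the member share fell from 44.0% to 25.8%. Over the same deciles median width rose from 717 to 872 bp for members and from 754 to 906 bp for shared peaks. The parts of score and width in the trend were not told apart. Of peaks under 600 bp, 1082 of 2413 were members (44.8%, 42.8 to 46.9). From 800 to under 1000 bp the share was 31.7% (30.5 to 32.9), and from 1000 to under 1500 bp it was 29.8% (28.3 to 31.4). From 1500 to under 2000 bp it was 28.3% (24.8 to 32.1). At 2 kb or more 123 of 407 low-scoring peaks were members (30.2%, 25.8 to 34.9), and the intervals of the classes from 1000 bp up overlap each other.

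Broad members were a small group that flanked a shared peak more often than narrower members did. Only 252 members (2.75%, 2.43 to 3.11) were at least 2 kb wide, against 3.9% (3.68 to 4.12) of score-weighted shared peaks, and 36 were at least 4 kb wide. The 5 widest were not high in score. They lay on chromosome 6 at 30998684 to 31006362 (7679 bp, score 75.3), chromosome 7 at 108074356 to 108081939 (7584 bp, score 58.3), chromosome 10 at 128354196 to 128361500 (7305 bp, score 130), chromosome 15 at 101929442 to 101936716 (7275 bp, score 81.3) and chromosome 13 at 114402565 to 114409439 (6875 bp, score 74.2). Each was 2535 bp or more from a control peak, whereas the rule by itself requires only that no control peak overlaps a member. Of the members of at least 2 kb, 129 (51.2%, 44.8 to 57.5) had a shared large T peak within 5 kb, against 27.6% (26.6 to 28.5) of narrower members. Shared peaks of at least 2 kb, weighted to the same deciles, showed a like share of 55.5% (52.5 to 58.5), so this setting went with width in both groups.

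The distance to control accessibility was spread widely. From edge to edge, the median distance of a member to the nearest control peak was 6631 bp (6433 to 6830), the 25th and 75th percentiles were 2723 and 15080 bp, and 5% lay beyond 58434 bp. For score-weighted shared peaks the distance to the nearest control peak that they did not overlap had a median of 7627 bp (7492 to 7742). These 2 distances are not alike. Every control peak that a shared peak overlaps is left out of the second, also one that reaches a neighbouring shared peak. None is left out for members, so the measure itself can raise their share at short distances. How much of the difference this makes was not tested. Members exceeded shared peaks at both ends. At the far end the rule itself can favour them, because a peak is less easily overlapped where control peaks are few. Within 1 kb of a control peak lay 927 members (10.1%, 9.52 to 10.8) against 6.17% (5.83 to 6.5) of shared peaks. Within 5 kb the shares were 39.99% and 32.4%, and at 10 kb they had come together at 63.1% and 61.8%. Beyond 50 kb there were 568 members (6.21%, 5.72 to 6.72) against 3.29% (3.03 to 3.55), and beyond 100 kb 206 members (2.25%, 1.96 to 2.58) against 1.11% (0.952 to 1.26).

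**Figure D2:**
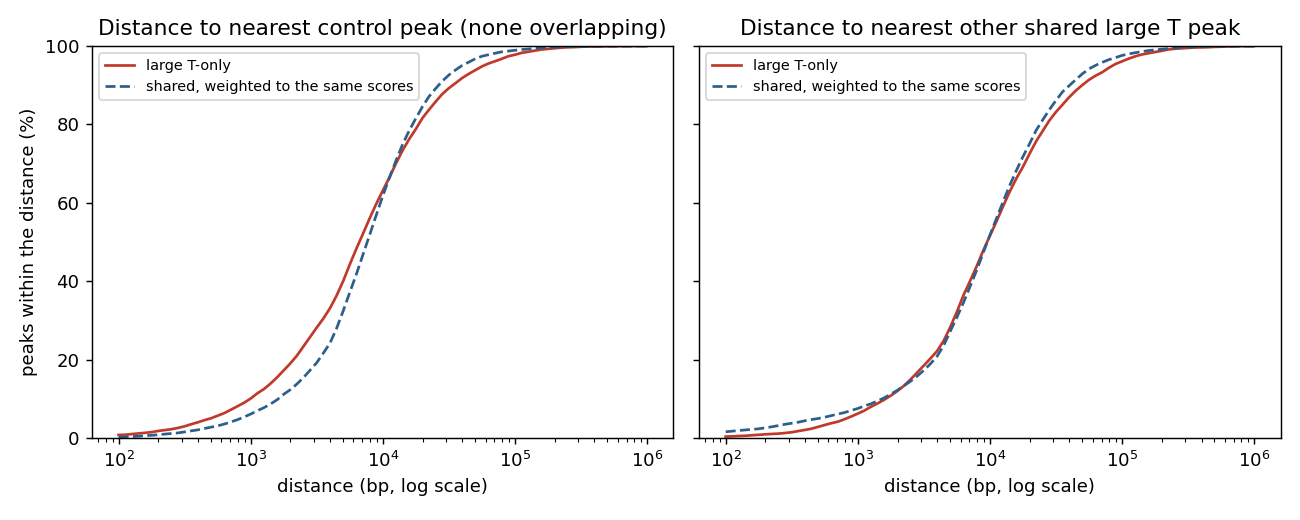
Cumulative percentage of large T-only peaks (solid) and of shared large T peaks weighted to the same score deciles (dashed) by distance in bp on a log scale, to the nearest control peak that does not overlap (left) and to the nearest other shared large T peak (right). On the left members stand at 39.99% against 32.4% at 5 kb and at 93.8% against 96.7% at 50 kb; on the right the lines run close together, with members below at 1 kb (6.28% against 7.58%) and at 50 kb (90.0% against 92.9%).

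At the threshold of the rule, neighbouring cases differed by few base pairs. The member on chromosome 4 at 5721670 to 5722906 and that on chromosome 9 at 33049717 to 33050922 abutted a control peak with no base between them, and the member on chromosome 12 at 15550803 to 15551828 stood 4 bp from one. On the other side, the shared peaks of smallest overlap were covered over 2 bp on chromosome 6 (118714033 to 118714747), 4 bp on chromosome 13 (43475011 to 43476047) and 7 bp on chromosome 5 (14972331 to 14973259). Such borderline cases were few. A control peak lay within 100 bp of 78 members, and 36 shared peaks were overlapped over at most 100 bp. When a control peak within 200 bp counted as an overlap, 8.43% of members and 7.06% of shared peaks lay within 1 kb of a control peak. The sites moved to the shared group by this setting still counted that same control peak as their nearest. The narrower gap thus follows at least in part from the relabelling.

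At the far end, the members most remote from control accessibility formed no dense group. A pair on chromosome 7 at 61128111 to 61128941 and 61133235 to 61134265 had no control peak within 1 Mb. Their nearest control peaks were 1006471 and 1011595 bp away, and they lay 4293 bp from each other, with scores of 93.0 and 104. The next were single sites on chromosome 1 at 28898291 to 28898804 (786989 bp), chromosome 4 at 79649397 to 79650210 (761175 bp) and chromosome 13 at 7720711 to 7721281 (661486 bp). All 5 were at most 1031 bp wide and ranked 38875 or lower in the large T list.

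Peak width went with closeness to control peaks. Members with a control peak within 500 bp had a median width of 988 bp (954 to 1027), those at over 2 to 5 kb one of 913 bp (899 to 927), and those beyond 50 kb one of 773 bp (753 to 793). Their scores ran slightly the other way, from a median of 68.9 to one of 74.6. Shared peaks weighted to the same scores narrowed along the same axis, from 1031 to 797 bp, so the trend was not limited to members. In each of the 8 distance classes the member median was the lower one, and in the 4 classes from over 2 kb up to 50 kb the intervals did not overlap.

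**Figure D3:**
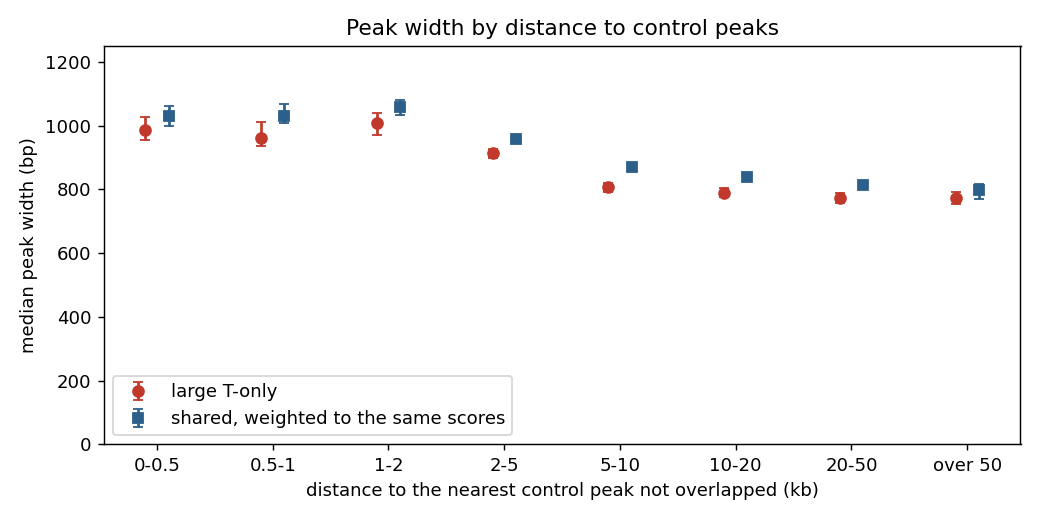
Median peak width in bp by distance in kb to the nearest control peak that does not overlap, for large T-only peaks (circles) and shared large T peaks weighted to the same score deciles (squares), with 95% intervals of the median. Both narrow with distance, from 988 to 773 bp for members and from 1031 to 797 bp for shared peaks.

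Next to control peaks, members met control-only peaks more often than shared peaks did. A control-only peak, meaning one that no large T peak overlaps, lay within 1 kb of 304 members (3.32%, 2.96 to 3.71) against 1.86% (1.66 to 2.05) of score-weighted shared peaks, and within 5 kb of 13.8% (13.1 to 14.6) against 9.18% (8.78 to 9.59). Of the 304, 258 had no shared large T peak within 5 kb. That the peaks of the 2 libraries lie side by side without overlap there follows from how both groups are defined. Farther out the order turned. Within 50 kb, 63.8% (62.8 to 64.8) of members and 69.5% (68.8 to 70.2) of shared peaks had a control-only peak. Taken over all distances, the nearest control peak was control-only for 27.7% of members and 27.9% of shared peaks, close to the 28.6% of control-only peaks in the autosomal control list. The score percentile of that nearest control peak within its own list was 48.3 for members and 47.9 for shared peaks (medians), with overlapping intervals.

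Flanking and isolated members were separated by whether a shared large T peak lay within 5 kb. There were 2582 flanking members (28.2%, 27.3 to 29.2) and 6568 isolated ones. Among shared peaks weighted to the same scores, 27.2% (26.6 to 27.8) had another shared peak within 5 kb, so the intervals overlap. The order also turned with the setting: with 2 kb the shares were 12.1% and 12.3%, with a control peak within 200 bp counted as an overlap they were 27.5% and 27.9%, and among peaks of a score of at least 75 they were 21.9% and 22.04%. With the control list cut to the length of the large T list they were 26.7% (25.9 to 27.5) and 24.3% (23.6 to 25.0), where the intervals separate, and 20.8% and 19.4% with distances from centre to centre. The median distance to the nearest shared peak was 9582 bp (9242 to 9856) for members and 9544 bp (9379 to 9737) for shared peaks. At the short end members were fewer, with 575 (6.28%, 5.8 to 6.8) within 1 kb of a shared peak against 7.58% (7.2 to 7.97). The rule itself can lower this share. A control peak on a shared peak can also reach a close neighbour, which then counts as shared. Within 100 bp the shares were 0.44% and 1.64%. How much of the difference the rule makes was not tested. At the long end members were more numerous, with 913 (9.98%, 9.37 to 10.6) over 50 kb from a shared peak against 7.13% (6.76 to 7.5).

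**Figure D4:**
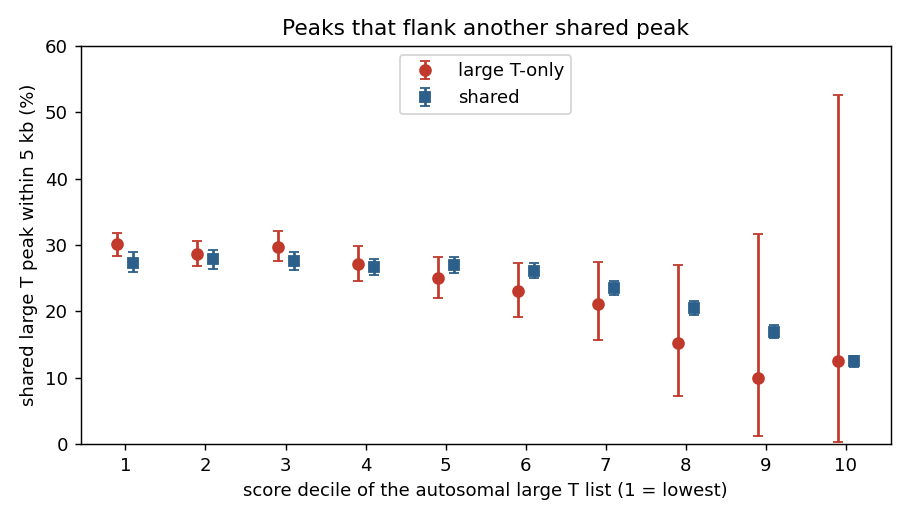
Percentage of peaks with another shared large T peak within 5 kb in each score decile, for large T-only (circles) and shared (squares) peaks, with exact 95% binomial intervals. In the lowest decile the members stand at 30.1% and the shared peaks at 27.4%; both shares are lower at high scores, where few members were left.

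By score decile the flanking share of members ran from 30.1% (28.4 to 31.9) in the lowest to 23.1% (19.2 to 27.3) in the sixth and 15.3% (7.22 to 27.0) in the eighth, where there were 59 members. Shared peaks stood at 27.4% (25.9 to 28.9), 26.2% (25.0 to 27.3) and 20.5% (19.5 to 21.6) in these deciles. The intervals of the 2 groups overlapped in each of the 10 deciles. High-scoring peaks of either kind thus had fewer close shared neighbours than low-scoring ones.

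Isolated members were narrower than flanking ones and slightly higher in score. Their median width was 799 bp (792 to 807) against 990 bp (977 to 1007), and their median score 71.0 (70.2 to 71.8) against 68.7 (67.8 to 69.9). With flanking members weighted to the deciles of isolated ones, the width of the former was 1004 bp (988 to 1021), so the gap remained at equal score. Of flanking members 129 (5.0%, 4.19 to 5.91) and of isolated members 123 (1.87%, 1.56 to 2.23) were at least 2 kb wide. In the 5 highest deciles by score stood 8.71% of isolated and 6.04% of flanking members. Shared peaks split in the same way had score-weighted widths of 846 bp (841 to 851) when isolated and 1037 bp (1025 to 1052) when flanking, above the members of the same class in both cases.

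The control list was close to flanking members, as the shared site beside them requires. Their nearest control peak was at a median of 2085 bp (1997 to 2184), against 2927 bp (2845 to 3019) for shared flanking peaks of like score. For isolated members the median was 10308 bp (10017 to 10606), next to 10042 bp (9920 to 10187) for isolated shared peaks, a difference within the intervals. By median, members were thus closer to control peaks in the flanking class only, by a measure that leaves out overlapped control peaks for shared peaks. Within 1 kb of a control peak lay 669 flanking members (25.9%, 24.2 to 27.7) and 258 isolated ones (3.93%, 3.47 to 4.43). For all 258 the nearest control peak was control-only. The split nearly requires this, because a shared control peak so close brings its shared large T peak near. On both sides within 5 kb a shared peak was found for 249 members (2.72%, 2.4 to 3.08) against 2.09% (1.89 to 2.29) of score-weighted shared peaks. The shared peak nearest to a flanking member ranked at a median percentile of 48.7 in the large T list, and that nearest to an isolated member at 58.9. Shared peaks gave 48.7 and 57.9.

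Shared sites within 5 kb of a member ranked slightly lower in the large T list than in the control list, and those within 50 kb slightly higher. Shared sites were paired 1 to 1 between the lists, and the rank shift is the percentile of a site among the 51949 pairs in the large T list minus that in the control list. For 2808 shared sites with a member within 5 kb the median shift was -1.72 percentile points (-2.67 to -1.04), and for shared sites without one, weighted to the same scores, -0.74 (-0.90 to -0.58). Within 50 kb of a member the median was 0.58 (0.41 to 0.78), against -0.26 (-0.41 to -0.12) for the others. Beside a control-only peak within 5 kb the shift was 4.09 (3.49 to 4.74) against -0.77 elsewhere. All of these shifts are small on a percentile scale.

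Most members had no other member close by, and neither did most shared peaks. With a gap of at most 5 kb between members, 8602 of the 9150 (94.0%) stood alone, 262 groups held 2 and 8 groups held 3. With at most 20 kb, 6984 (76.3%) stood alone, and 844 groups held 2, 124 held 3, 18 held 4 and 6 held 5 or more. The largest of these held 7 members over 0.0934 Mb of chromosome 9 (113119012 to 113212385), with scores from 56.1 to 364, a median of 181, and no shared large T peak or control peak between its ends. By order in the list and within 20 or 50 kb, members met each other somewhat more often than shared peaks met members. The next or previous peak of the list was a member for 31.1% (30.2 to 32.1) of members and 26.7% (26.1 to 27.3) of score-weighted shared peaks. A member lay within 50 kb of 46.3% (45.3 to 47.3) of members and of 42.6% (41.9 to 43.3) of shared peaks. At 5 kb the member share was the lower one, with 5.99% (5.51 to 6.5) and 6.74% (6.38 to 7.1), but the intervals overlap. At 1 kb the shares were 1.95% (1.67 to 2.25) and 1.57% (1.39 to 1.75), and at 10 kb 12.6% and 12.5%.

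Members were found in 2018 of the 2270 autosomal windows of 1 Mb that held a large T peak, with a median of 4 per window that held any, and 98 windows held 10 or more. The window on chromosome 8 from 35000001 to 36000000 had the most, 19 members beside 43 shared large T peaks and 11 control-only peaks. Their scores ran from 50.9 to 274, and 3 of the 19 were flanking. On chromosome 9 the window from 113000001 to 114000000, which contains the group of 7, had 18 members beside 22 shared and 5 control-only peaks. Of 3 windows with 15 members, the one holding the member of highest score lay on chromosome 15 (66000001 to 67000000), beside 39 shared and 12 control-only peaks. In all 3 windows shared peaks outnumbered members.

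Large T peaks with at most 2 control peaks nearby held more members than their scores would give. The rule itself can favour this, because a peak is less easily overlapped where control peaks are few. How much of the excess this makes was not tested. For each large T peak the control peaks centred within 50 kb on either side were counted, apart from those it overlapped. Among peaks with at most 2 such neighbours, 2344 of 12513 were members (18.7%, 18.1 to 19.4), 1.21 times the number expected when each score decile has its list-wide share of members. Peaks with 5 neighbours gave 13.1% (12.4 to 13.8), a ratio of 0.92, and those with 8 or more 15.1% (14.3 to 15.9), a ratio of 0.96. With 3 or 4 neighbours the ratio was 0.96 and with 6 or 7 it was 0.93, so only the poorest class had an excess. Members had a mean of 4.45 control neighbours, and score-weighted shared peaks one of 4.73.

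The autosomes differed in their share of members beyond counting error. Chromosome 4 had the highest share, 675 of 3721 large T peaks (18.1%, 16.9 to 19.4), and chromosome 7 the lowest, 444 of 3558 (12.5%, 11.4 to 13.6). To allow for scores, the members of each autosome were divided by the number expected from the score deciles of its peaks. This ratio was 1.23 (1.15 to 1.31) on chromosome 4, 1.15 (1.06 to 1.24) on chromosome 13 and 1.11 (1.03 to 1.19) on chromosome 3. It was 0.87 on chromosomes 5 (0.79 to 0.94), 10 (0.79 to 0.95) and 11 (0.80 to 0.95), 0.88 on chromosome 7 and 0.89 on chromosome 1. The intervals of these 3 and 5 autosomes excluded 1, and those of the other 11 of the 19 did not.

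**Figure D5:**
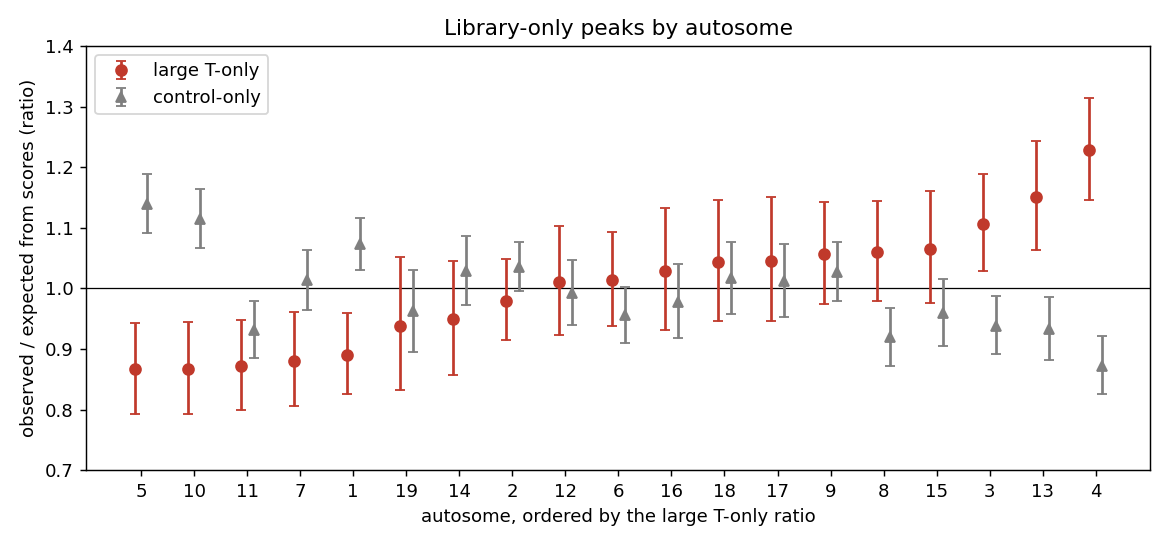
Observed over expected number of library-only peaks on each autosome, the expectation taken from the score deciles of that autosome's peaks in its own list, for large T-only (circles) and control-only (triangles) peaks, with 95% intervals scaled from exact binomial ones. Autosomes are ordered by the large T-only ratio, from 0.87 on chromosome 5 to 1.23 on chromosome 4; the axis starts at 0.7.

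Other measures stood at opposite ends on the autosomes of highest and lowest ratio. On chromosome 4 the ratio for control-only peaks was 0.87 (0.83 to 0.92), the lowest of all, and the median rank shift of its shared sites towards the large T list was 2.31 percentile points, the highest. Chromosomes 5 and 10 showed the reverse, with control-only ratios of 1.14 (1.09 to 1.19) and 1.12 (1.07 to 1.16) and shifts of -1.18 and -1.45. The 2 ratios did not oppose each other on every autosome. Both were below 1 on chromosomes 11 (0.87 and 0.93) and 19 (0.94 and 0.96), and both were above 1 on chromosomes 9, 17 and 18 (1.04 to 1.06 for members and 1.01 to 1.03 for control-only peaks). Shared control peaks had median widths of 1295, 1282 and 1326 bp on chromosomes 4, 13 and 3, and of 1515 and 1521 bp on chromosomes 5 and 10. They did not follow the member ratio throughout: chromosome 8, with a ratio of 1.06, had the widest at 1534 bp, and chromosome 1, with 0.89, had 1425 bp. Shared large T peaks had 1270, 1161 and 1239 bp on chromosomes 4, 13 and 3, and 1265 and 1198 bp on 5 and 10. These values come from the same pair of lists and are not separate evidence. Their part in the member counts was not tested.

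Along chromosome 4 the excess was not confined to one stretch. Each of its 8 windows of 20 Mb had more members than expected, from 1.08 times at 140 to 160 Mb to 1.61 times at 60 to 80 Mb, where 69 of 265 large T peaks were members (26.0%, 20.9 to 31.8). On chromosome 10 each of 7 windows had fewer than expected, from 0.83 to 0.91 times. Chromosome 13 was mixed, with ratios of 1.32 and 1.36 in its first 2 windows, 0.89 and 0.93 in the next 2, and 1.20 and 1.21 in the last 2. These windows divide the counts by which the autosomes were picked, after their values were seen, and are a description only. Relative position along a chromosome made little difference over all autosomes. The ratio was 1.00, 1.00, 0.98, 0.99 and 1.01 in 5 successive stretches of equal length, counted from the first peak.

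Autosomes also differed in the width and setting of their members. Member width was highest on chromosome 8, with a median of 937 bp against 809 to 885 bp on the other 18. Its shared large T peaks (1392 bp), shared control peaks (1534 bp) and control-only peaks (984 bp) were also the widest of any autosome by median, so the feature was not particular to members. The flanking share of members was highest on chromosome 11, where 175 of 477 had a shared peak within 5 kb (36.7%, 32.4 to 41.2) against 30.0% (27.2 to 32.8) of its score-weighted shared peaks. It was lowest on chromosome 14, at 79 of 345 (22.9%, 18.6 to 27.7) against 27.8% (24.6 to 31.1). Chromosome 18 had the widest gap in the direction of members, 30.9% (26.2 to 36.0) against 22.2% (19.3 to 25.0).

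Set beside the reverse set, the members differed in their closeness to the other list and were alike in some other measures. The 20837 autosomal control-only peaks were also weak and narrow, with a median width of 924 bp (920 to 928) against 1002 bp (996 to 1008) for shared control peaks of like score. A large T peak lay within 1 kb of 4.98% (4.69 to 5.29) of them, against 6.78% (6.39 to 7.17) of shared control peaks, whereas members were above their shared peaks at this distance. Of control-only peaks 19.8% (19.3 to 20.4) flanked a shared peak within 5 kb, against 29.9% (29.2 to 30.6). The control list is the longer of the pair. With it cut to the length of the large T list, 8.24% (7.77 to 8.73) of members lay within 1 kb of a control peak. The share of score-weighted shared large T peaks was then 4.27% (3.96 to 4.57). Control-only peaks were not measured again under this setting. The part of list length in the contrast between members and control-only peaks was not tested.

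The 21400 large T-only peaks of naked mole rat cells were likewise narrower than shared peaks of like score, and in their setting they matched the mouse members in some measures and not in others. Their median width was 932 bp (928 to 937) against 978 bp (973 to 982). A shared large T peak lay within 5 kb of 23.2% (22.6 to 23.8) of them against 31.8% (31.2 to 32.4), and a control peak within 5 kb of 30.8% (30.2 to 31.4) against 37.1% (36.4 to 37.7). In these measures they were below their shared peaks, where mouse members were not. As in mouse, more of them than of shared peaks lay over 50 kb from any control peak (10.5%, 10.1 to 10.9, against 3.83%, 3.58 to 4.08), and more had a library-only peak next to them in the list (50.5%, 49.9 to 51.2, against 40.7%, 40.1 to 41.3). Its positions lie on scaffolds, whose ends can lengthen such distances. The naked mole rat large T list is also the longer of its pair, and the difference between species was not tested.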

How the data were processed

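Each library has 1 list of peaks, deposited by the authors without a header. Its start and end columns (other units) give base pairs, taken as BED intervals, with starts shown 1-based in the text. For the score per peak that the authors deposited no definition was found. It starts at 50 and ranks peaks within 1 list only. Peak names begin with MACS, per the files. The submitters' processing notes name mm9, CASAVA, Bowtie, SAMtools and bedtools with no roles, and mouse peaks on chromosome 1 end at 197.1 Mb, past the last gene of the GRCm38 table (195.3 Mb), whose names and sequences were therefore not placed on peaks.

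Members and lists were chosen with earlier results of these data known. Shares have exact (Clopper-Pearson) 95% intervals, medians have order-statistic intervals, and score-weighted values of shared peaks average the 10 deciles by the members' numbers, with normal (shares) or Woodruff (medians) intervals. Regions were named by a rule: the 10 highest-scoring, 5 widest, 5 most remote and 3 closest members, the 3 smallest overlaps, the 3 fullest 1 Mb windows, and the extreme autosomes. Other autosomes, groups and the 20 Mb windows were chosen after their values were seen. Functions were tested on simulated lists of 59000 peaks, where 100% of planted sites and distances came back, and the number of members equalled that of bedtools 2.31.1. Computation ran in scipy 1.17.1, pandas 2.3.3, numpy 2.4.6 and Python 3.11.15. Depth per library is unknown.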

Additional observations from a re-analysis of the deposited data

Results flagged for a closer look

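With 1 library per group, large T-only sites departed from score-weighted shared large T peaks one way in mouse and the other way in naked mole rat for 2 measures, and neither difference between species was tested. The share with a shared large T peak within 5 kb was 1.03 percentage points above that of shared peaks in mouse and differed by -8.57 points in naked mole rat; in mouse the intervals of the 2 shares overlap, and the sign of their difference changes under some other settings. The share with a control peak within 5 kb differed by 7.64 points in mouse and by -6.28 points in naked mole rat. Both measures use the same lists and are not separate evidence.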

How the results depend on the processing

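The number of members was 3981 among large T peaks with a score of at least 75, of the 9150 reported; it stayed within 1.5 times under the other 5 settings, up to 12750 with the control list cut to the length of the large T list, which was added after the data had been seen. The flanking share of members, and of score-weighted shared peaks, was 21.9% and 22.04% at a score of at least 75, 12.1% and 12.3% with a window of 2 kb, 51.6% and 51.7% with 10 kb, 20.8% and 19.4% with distances taken centre to centre, and 26.7% and 24.3% with the control list cut; the shared value was 27.9% where a control peak within 200 bp counted as an overlap and 26.5% without the 1% highest-scoring peaks of each list. The sign of the difference between the 2 shares thus depended on the setting. Median member width was 856 bp where a control peak had to cover 50% of the large T peak, 964 bp at a score of at least 75, 858 bp without the 1% highest-scoring peaks and 859 bp with the control list cut. Median distance to a control peak was 6250 bp under the 50% rule, 7836 bp centre to centre and 7867 bp with the control list cut. The cause of these moves was not tested beyond what each setting changes by construction. The ratio of observed to expected members stayed above 1 on chromosome 4 (1.19 to 1.24) and below 1 on chromosome 5 (0.86 to 0.88) in each setting run. No paired analysis was possible because each group had 1 library. Depth is unknown, so which missing control peaks reflect shallow sequencing was not tested.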
